A study of Homo sapiens with 9 samples.

Results

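The miR-183 cluster, with the hairpins of miR-183, miR-96 and miR-182, was followed through small RNA libraries of the human colorectal carcinoma line HCT116 and of 2 resistant sublines. HCT-Oxa-c had been selected from it in gradually raised, continuously present oxaliplatin, and HCT-FU-c in 5-fluorouracil. Its members here were the rows of the count table named hsa-miR-183-5p, hsa-miR-183-3p, hsa-miR-96-5p and hsa-miR-182-5p, which are 4 of the 1198 miRNAs listed, and all 4 passed the filter on low counts that kept 367 miRNAs for testing. With 3 biological replicates for every line there were 9 libraries. Only 1 subline stands for each drug, and p-values below rest on the spread among libraries within the lines, not on independent selections. For the medium, the labels name RPMI and the study's methods name DMEM, with fetal bovine serum, penicillin and streptomycin in all lines. In HCT116 the counts summed to 1423526 (replicate 1), 1414341 (replicate 2) and 856383 (replicate 3). The sums for HCT-Oxa-c were 1950307, 2207538 and 1088268, and for HCT-FU-c 1230774, 1487737 and 919675. Levels are given as CPM after TMM normalization, and 3 counts or fewer in a library, which is 1.34 to 4.01 CPM, were treated as not distinguishable from 0. The reads carry no molecular identifiers that were used here, so this limit covers counting error only.

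The 3 hairpins of the cluster are transcribed together and cut into separate precursors, each of which yields a 5p and a 3p arm. The cluster is known for its high level in sensory cells of the ear and eye, where changes in the seed of miR-96 cause hearing loss, and for higher levels in colorectal tumours than in normal mucosa. miR-96-5p and miR-182-5p are also known for acting on FOXO transcription factors. In GENCODE 29 on GRCh38 the hairpins lie on the minus strand of chromosome 7, MIR183 at chr7:129774905-129775014, MIR96 at chr7:129774692-129774769 and MIR182 at chr7:129770383-129770492. MIR183 and MIR96 are 135 bases apart and MIR96 and MIR182 are 4199 bases apart, and no other annotated gene overlaps the hairpins or the 4632 bases they span. The nearest annotated genes are the lincRNA AC084864.1, 8355 bases before MIR183 on the same strand, and NRF1 on the opposite strand, 13300 bases beyond MIR182.

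The mature sequences are shown because the 3 guide arms have seeds that resemble each other without being the same, and because the results below separate members that come from 1 locus. They are from the RefSeq miRNA table on GRCh38.p14, in which all 4 members and 1059 of the 1198 listed miRNAs were found, and capitals mark the seed, bases 2 to 8 from the 5′ end.
hsa-miR-183-5p: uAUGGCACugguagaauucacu
hsa-miR-96-5p: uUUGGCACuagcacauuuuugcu
hsa-miR-182-5p: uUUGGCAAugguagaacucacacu
hsa-miR-183-3p: gUGAAUUAccgaagggccauaa
hsa-miR-1271-5p: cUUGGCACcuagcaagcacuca
With positions counted from the 5′ end, the seed of miR-96-5p differs from that of miR-183-5p by A2U, and the seed of miR-182-5p differs from that of miR-96-5p by C8A. All 3 guide arms share UGGCA at bases 3 to 7, which 10 of the 2370 mature miRNAs of the table have at this place (0.422%). Beyond the seed, miR-183-5p and miR-182-5p also share the run ugguagaa from base 9. The guide arms are 22, 23 and 24 bases long for miR-183-5p, miR-96-5p and miR-182-5p, with 40.9%, 39.1% and 41.7% G and C. Grouped by identical seed, miR-96-5p stood with miR-1271-5p, which comes from chromosome 5, and no other of the 1059 listed miRNAs with a sequence had the seed of a member. miR-1271-5p had 1 count in HCT-Oxa-c replicate 2 and 0 in the other 8 libraries, so it could not be told from 0.

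The libraries numbered 3 stood apart from the others in all 3 lines, and because the members follow this split it is given first. After subtraction of the line means, libraries numbered 3 correlated with each other across the tested miRNAs at 0.74 to 0.76 and with libraries of other numbers at -0.68 to -0.50. The negative values follow in part from the subtraction, since the deviations of the 3 libraries of a line cancel out. The labels name no batch, run or date for the numbers. The study's methods describe runs that each held fewer than 9 libraries. Which libraries shared a run is not given in the sources used here. A difference between runs and a difference between cultures therefore cannot be told apart here. The libraries numbered 3 were also the shallowest of each line. In the edgeR model with line and replicate number as factors, 167 of 367 miRNAs (45.5%) differed among the 3 numbers at an adjusted p below 0.05, and 3 of the 4 members were among them. With a share of 45.5% over all miRNAs, this count is no result about the cluster. The members called went in both directions, as did all miRNAs called, with 92 higher and 75 lower by the sign of number 3 minus the mean of the others. The test covers any difference among the numbers, so a sign can belong to a value near 0. An example is miR-92a-3p (-0.10, SE 0.13 on the log2 scale).

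miR-183-5p, the guide arm of the first hairpin, measured 8385, 4693 and 17322 CPM in replicates 1, 2 and 3 of HCT116. In HCT-Oxa-c it measured 8553, 8303 and 21333 CPM. In HCT-FU-c it measured 6457, 3435 and 13505 CPM. Replicate 3 was the highest library of each line, and the ranges of the lines overlapped. As mean and SD (n = 3 each) the levels were 12730 ± 7451 CPM in HCT-Oxa-c, 10130 ± 6493 CPM in HCT116 and 7799 ± 5167 CPM in HCT-FU-c, and neighbours in this order differed by less than their SD. Within each number the order of the lines was nevertheless the same, with HCT-Oxa-c highest and HCT-FU-c lowest. This order rests on the matching by number, and libraries numbered 1 and 2 were about as alike across numbers as within a number. HCT-Oxa-c replicate 2 (8303 CPM) was below HCT116 replicate 1 (8385 CPM). HCT-FU-c replicate 1 (6457 CPM) was above HCT116 replicate 2 (4693 CPM).

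miR-182-5p, the guide arm of the last hairpin, measured 5367, 4476 and 18976 CPM in HCT116. In HCT-Oxa-c it measured 6443, 7436 and 25404 CPM. In HCT-FU-c it measured 5869, 3838 and 17400 CPM. Replicate 3 was again the highest library of each line, and HCT-Oxa-c was the highest line within each number, while the ranges of the lines overlapped. The means were 13090 ± 10670 CPM in HCT-Oxa-c, 9607 ± 8127 CPM in HCT116 and 9035 ± 7315 CPM in HCT-FU-c (SD, n = 3 each), again closer to each other than their SD. By counts within a library miR-182-5p ranked between 8 and 30 and miR-183-5p between 10 and 33 among all listed miRNAs.

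miR-96-5p, whose hairpin lies between the others, was lower and went the other way. It measured 573, 535 and 325 CPM in HCT116, 611, 671 and 263 CPM in HCT-Oxa-c, and 543, 676 and 263 CPM in HCT-FU-c. Replicate 3 was the lowest library of each line, below every library numbered 1 or 2, and the lines overlapped. The means were 514.9 ± 220.5 CPM in HCT-Oxa-c, 494.1 ± 210.6 CPM in HCT-FU-c and 477.3 ± 133.5 CPM in HCT116 (SD, n = 3 each), so their differences were small beside the SD. Levels of different miRNAs compare only roughly, since adapters are joined to some sequences more readily than to others, and this applies to the gap between miR-96-5p and its neighbours.

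miR-183-3p, the passenger arm of the first hairpin, was counted 28 to 74 times per library. It measured 22.4, 35.7 and 37.4 CPM in HCT116, 35.1, 29.97 and 32.9 CPM in HCT-Oxa-c, and 28.7, 38.9 and 44.1 CPM in HCT-FU-c. The lines overlapped, and replicate 3 was the highest library in HCT116 and HCT-FU-c but not in HCT-Oxa-c. The means of 31.9 ± 8.22, 32.7 ± 2.59 and 37.2 ± 7.82 CPM (SD, n = 3 each) in the same order of lines differed by less than the SD of HCT116 or HCT-FU-c, but the difference between the sublines was larger than the SD of HCT-Oxa-c. The other 2 passenger arms are not members of the cluster as defined here. miR-182-3p had 2 to 34 counts per library, with its lowest count of each line in replicate 3, and miR-96-3p had 13 counts in HCT-Oxa-c replicate 2 and 0 to 3 counts elsewhere, so that it could not be told from 0 in 8 of 9 libraries.

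**Figure D1:**
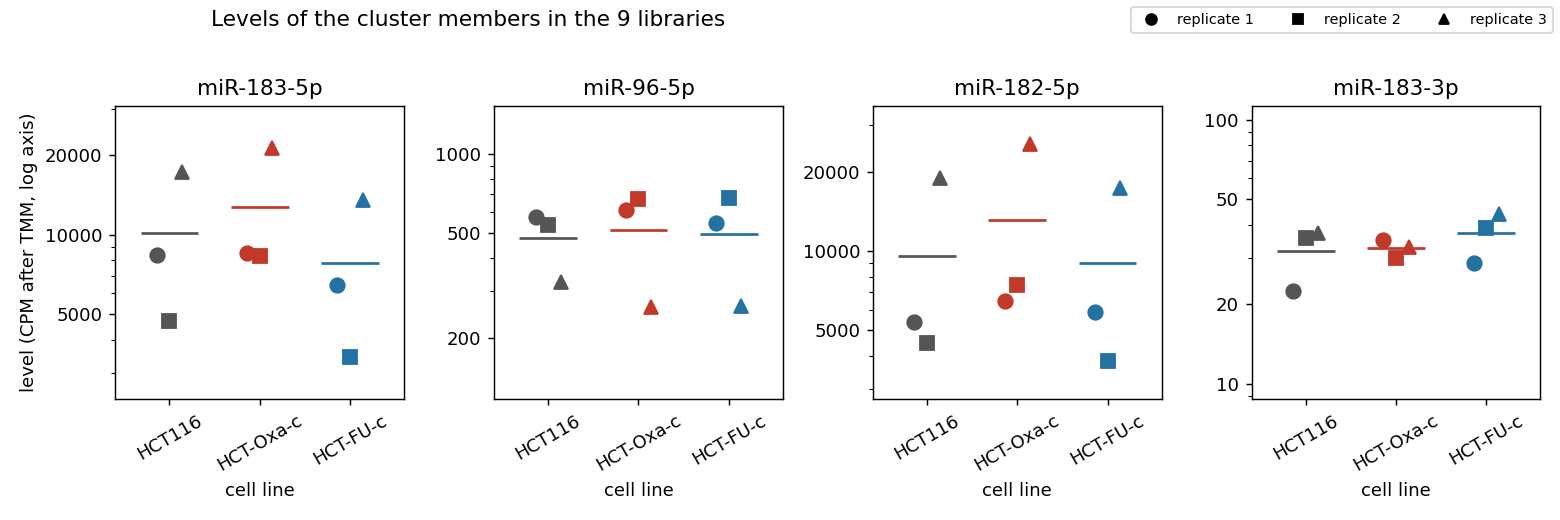
Level of each member in CPM on a log axis that covers the same fold range in every panel, with 1 symbol per library (circle, square and triangle for replicates 1, 2 and 3) and a line at the mean of the 3 replicates. The triangles lie highest in every line for miR-183-5p (13505 to 21333 CPM) and miR-182-5p (17400 to 25404 CPM) and lowest for miR-96-5p (263 to 325 CPM).

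Replicate 3 lay above the mean of replicates 1 and 2 by 2.65-fold in HCT116, 2.53-fold in HCT-Oxa-c and 2.73-fold in HCT-FU-c for miR-183-5p. For miR-182-5p the same ratio was 3.86, 3.66 and 3.59. For miR-96-5p it was 0.587, 0.410 and 0.432, that is, lower in each line. On the log2 scale the edgeR model gave replicate 3 minus the mean of the others as 1.43 (SE 0.14) for miR-183-5p, 1.89 (SE 0.13) for miR-182-5p, -1.08 (SE 0.15) for miR-96-5p and 0.26 (SE 0.26) for miR-183-3p, where the median of all tested miRNAs was 0.02. These differences are a description, since the number 3 was picked after its libraries were seen to stand apart. The edgeR test over all 3 numbers does not pick number 3, but it was also added after the split was seen. Its p-values therefore describe that split. The edgeR adjusted p was 3.17e-08 for miR-183-5p, 3.13e-10 for miR-182-5p, 1.19e-05 for miR-96-5p and 0.564 for miR-183-3p. These calls were the same under all 15 alternatives run for this test. Scaling by total counts alone shifted the median of all tested miRNAs to -0.23 for this difference and left the directions of the members as they were.

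Markers of other cell types were read beside this split. Of 8 epithelial and colorectal markers, 7 had more than 3 counts in every library, miR-200c-3p was the most abundant, and their summed level was 23520 to 26050 CPM in the libraries numbered 1 and 2 and 19530 to 21050 CPM in those numbered 3. Of 6 blood cell markers, 1 (miR-486-5p, also the most abundant) had more than 3 counts in every library, and miR-150-5p did in none. Their sum was 16.98, 27.15 and 395.6 CPM in replicates 1, 2 and 3 of HCT116, 10.5, 22.4 and 579 CPM for HCT-Oxa-c, and 42.3, 36.8 and 287.2 CPM in HCT-FU-c. miR-451a, which marks red cells, averaged 0.463 CPM over the libraries numbered 1 and 2 and 150.3 CPM over those numbered 3, and the liver marker miR-122-5p averaged 1.06 and 43.4 CPM. miR-142-3p (1.71 and 0.843 CPM) and miR-142-5p (3.13 and 1.23 CPM) of the blood list went the other way at low counts, and miR-223-3p averaged 0.703 and 7.42 CPM. Among the markers of blood and liver, miR-451a, miR-486-5p, miR-223-3p and miR-122-5p were thus high in the same libraries as miR-183-5p and miR-182-5p, and the part of the markers in the levels of the members was not tested. Of 3 muscle markers only miR-1-3p is listed, at 0.207 CPM in numbers 1 and 2 and 4.04 CPM in number 3, and of the neural markers miR-124-3p had at most 2 counts and miR-9-5p averaged 2971 CPM in numbers 1 and 2 and 3335 CPM in number 3. The mesenchymal marker miR-143-3p averaged 122.7 and 422.3 CPM, higher in number 3, while miR-145-5p of the same list (135.9 and 88.07 CPM) and the endothelial marker miR-126-3p (862.7 and 512.7 CPM) were lower there. Between the sublines with the block, miR-451a was higher in HCT-Oxa-c (log2 difference 1.63, SE 0.44, edgeR adjusted p = 0.00904), the direction of miR-183-5p and miR-182-5p below, and in the libraries numbered 1 and 2 it had at most 3 counts. The values of miR-122-5p (1.63, SE 0.71, edgeR adjusted p = 0.0939) and miR-486-5p (-0.39, SE 0.32, edgeR adjusted p = 0.403) did not pass. In bulk RNA a larger number of cells of a type and more of a miRNA per cell cannot be told apart. Each library here came from a culture of 1 cell line, and where the reads of the blood and liver markers came from was not tested.

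Co-change within the cluster followed the same split. Over the 9 libraries the log2 levels of miR-183-5p and miR-182-5p had a Pearson r of 0.95, and their deviations from the line means had 0.97. miR-96-5p had an r of -0.82 with miR-183-5p and of -0.92 with miR-182-5p, and of -0.91 and -0.96 for the deviations. miR-183-3p was less closely related to the others, with 0.07 to miR-183-5p of its own hairpin, 0.32 to miR-182-5p and -0.41 to miR-96-5p. Over all 67161 pairs of tested miRNAs the median r was 0.00, and the median size of r was 0.43, or 0.55 for the deviations. The 9 points fall into 2 sets by number, so these values mostly describe the gap between the sets, and no p is given. Within the 6 libraries numbered 1 and 2, r was 0.89 for miR-183-5p and miR-182-5p, -0.09 for miR-183-5p and miR-96-5p, and 0.10 for miR-182-5p and miR-96-5p. The guide arms of the outer hairpins therefore varied together in either case, while the opposite course of miR-96-5p was seen between the sets and not within the set of 6. In those 6 libraries miR-183-3p had an r of -0.66 with miR-183-5p, -0.41 with miR-182-5p and 0.31 with miR-96-5p.

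**Figure D2:**
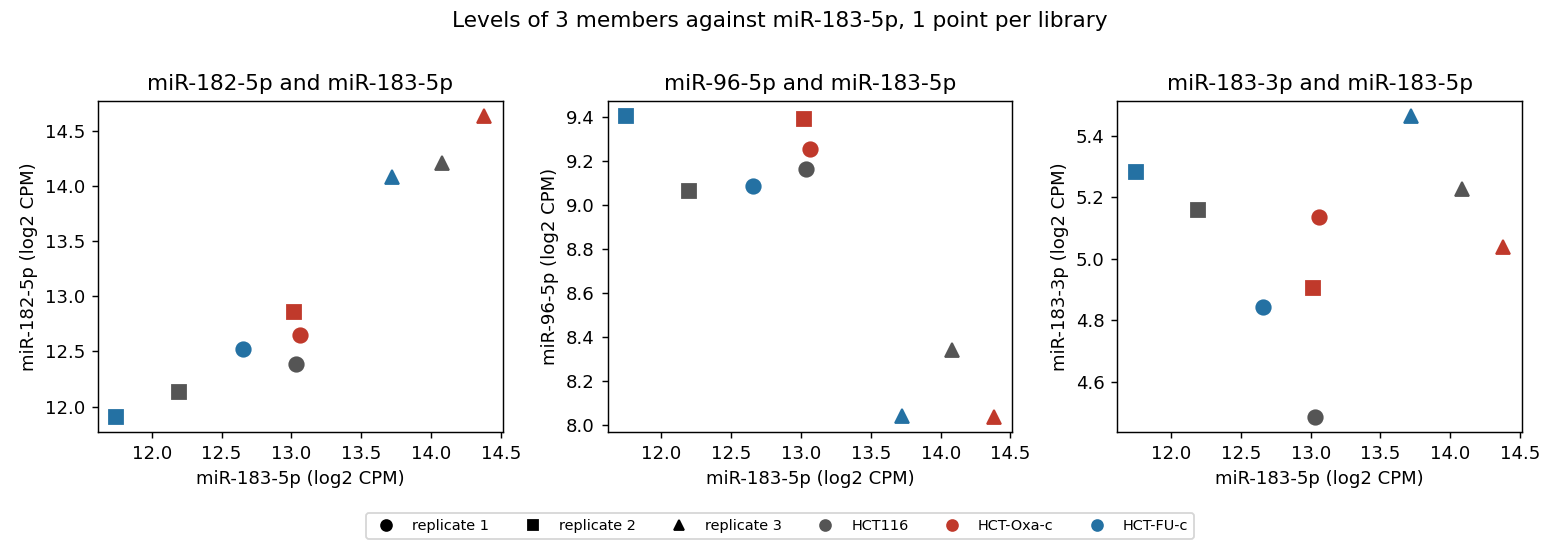
Log2 CPM of miR-182-5p, miR-96-5p and miR-183-3p against log2 CPM of miR-183-5p, 1 point per library, with colour for the line and shape for the replicate number. The points of miR-182-5p rise with miR-183-5p (r = 0.95, n = 9), while for miR-96-5p the 3 triangles lie apart at the lower right (r = -0.82, n = 9, and -0.09 in the 6 libraries numbered 1 and 2).

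The miRNAs of other hairpins with the highest r to each member were found among 362 tested miRNAs over the 9 libraries. For miR-183-5p they were miR-92a-1-5p (r = 0.97), miR-181a-2-3p (0.97) and miR-10399-5p (0.96). For miR-182-5p they were miR-10b-5p (0.99), miR-196b-5p (0.98) and miR-30e-3p (0.98). For miR-96-5p they were miR-374a-5p (0.97), miR-148b-5p (0.97) and miR-328-3p (0.95), whose log2 difference of replicate 3 was -2.26, -2.97 and -3.98. For miR-183-3p they were miR-32-5p (0.92), let-7d-5p (0.86) and miR-107 (0.79). Within the 6 libraries numbered 1 and 2 the values for miR-96-5p were 0.20, 0.35 and 0.54, and those for miR-182-5p were 0.89, 0.78 and 0.96. These are the highest of 362 values for each member, so high values among them are no measure of the cluster.

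HCT-Oxa-c was compared with HCT116 to ask which miRNAs differ in the oxaliplatin-resistant subline. In the edgeR model with line as the only factor, 0 of the 4 members were differentially expressed, where 9 of 367 miRNAs (2.45%) were. The log2 fold changes were 0.45 (SE 0.78, adjusted p = 0.990) for miR-182-5p, 0.33 (SE 0.62, adjusted p = 1.00) for miR-183-5p, 0.11 (SE 0.45) for miR-96-5p and 0.04 (SE 0.30) for miR-183-3p, and no member had an unadjusted p below 0.05. Leaving out 1 library numbered 3 makes the numbers unequal between the lines, and the first 2 values were then -0.40 and -0.20 without HCT-Oxa-c replicate 3 and 1.38 and 0.93 without HCT116 replicate 3. With replicates 1 and 2 only they were 0.52 and 0.39. Within the numbers 1, 2 and 3, where both libraries share the number, miR-182-5p was higher in HCT-Oxa-c by 0.26, 0.73 and 0.42 on the log2 scale. For miR-183-5p these differences were 0.03, 0.82 and 0.30. miR-96-5p (0.09, 0.33 and -0.31) and miR-183-3p (0.65, -0.25 and -0.19) differed in sign between the numbers.

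With the replicate number as a block, 54 of 367 miRNAs (14.7%) were called in this comparison, and 1 of the 4 members was. miR-182-5p was higher in HCT-Oxa-c with a log2 fold change of 0.48 (SE 0.16, edgeR adjusted p = 0.0430, higher in 3 of 3 numbers). The call was lost without any 1 of the 6 libraries compared, with edgeR adjusted p = 0.0761, 0.199 and 0.150 without HCT116 replicates 1, 2 and 3 and 0.0579, 0.363 and 0.0633 without HCT-Oxa-c replicates 1, 2 and 3. The log2 fold change in these fits was 0.33 to 0.66. With replicates 1 and 2 only, the edgeR adjusted p was 0.103 and the log2 fold change 0.54. miR-183-5p reached 0.40 (SE 0.17, edgeR adjusted p = 0.123, higher in 3 of 3 numbers) and passed the threshold when HCT-FU-c was left out of the model (edgeR adjusted p = 0.0195). With 1 library left out its log2 fold change was 0.18 to 0.61. Over the 17 alternatives its edgeR or DESeq2 adjusted p reached 0.652. The values of miR-96-5p (0.05, SE 0.16) and miR-183-3p (0.08, SE 0.30) had edgeR adjusted p = 0.938 each. In the same fit the mesenchymal marker miR-143-3p was lower in HCT-Oxa-c (-0.97, SE 0.20, edgeR adjusted p = 0.00172). The other marker of that list, miR-145-5p, was at -0.01 (SE 0.20, edgeR adjusted p = 0.987). Against HCT116, miR-143-3p was also lower in HCT-FU-c with the block (-0.96, SE 0.21, edgeR adjusted p = 0.0113). The relation of miR-143-3p to the call of miR-182-5p was not tested. As 1 of 4 compares with 14.7% of all miRNAs, the count alone does not set the cluster apart.

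HCT-FU-c was compared with HCT116 to ask the same of the 5-fluorouracil-resistant subline. No miRNA was called by edgeR without the block, 0 of 367 (0%), and so 0 of the 4 members were, with 15 miRNAs and no member at an unadjusted p below 0.05 and with 4 miRNAs called by DESeq2, none of them a member. With the block 20 of 367 (5.45%) were called and again 0 of the 4 members. In the TMM fits of all 9 libraries miR-183-5p was the member farthest from HCT116. It differed by -0.38, -0.45 and -0.36 on the log2 scale within numbers 1, 2 and 3. The log2 fold change was -0.38 (SE 0.62, edgeR adjusted p = 0.997) without the block and -0.39 (SE 0.16, edgeR adjusted p = 0.177) with it. Without HCT116 replicate 3 the value of miR-183-5p without the block was 0.25, and miR-182-5p was farther at 0.88. With total counts alone and no block, miR-183-3p was farther (0.41) than miR-183-5p (-0.27). The blocked values of miR-182-5p (-0.06, SE 0.16), miR-96-5p (-0.01, SE 0.17) and miR-183-3p (0.23, SE 0.30) did not pass either. miR-183-3p was higher than in HCT116 within 3 of 3 numbers, miR-182-5p and miR-96-5p within 1 of 3 each. Both comparisons share the HCT116 libraries, so their values are not independent of each other.

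The sublines were also compared with each other, which asks whether a member differs between the resistances and does not use HCT116 as reference. Without the block 16 of 367 miRNAs (4.36%) and 0 of the 4 members were called by edgeR, with log2 differences of 0.71 (SE 0.63, adjusted p = 0.677) for miR-183-5p and 0.54 (SE 0.78, adjusted p = 0.826) for miR-182-5p. Without HCT-Oxa-c replicate 3 these were 0.17 and -0.32, and without HCT-FU-c replicate 3 they were 1.44 and 1.49. With the block 97 of 367 miRNAs (26.4%) and 2 of the 4 members were. miR-183-5p was 1.73-fold higher in HCT-Oxa-c, a log2 difference of 0.79 (SE 0.17, edgeR adjusted p = 0.00105), with 0.41, 1.27 and 0.66 within numbers 1, 2 and 3. This call held under all 17 alternatives run with the block, with edgeR or DESeq2 adjusted p from 4.66e-05 to 0.0291. miR-182-5p was 1.46-fold higher, a log2 difference of 0.55 (SE 0.16, edgeR adjusted p = 0.0145), with 0.14, 0.95 and 0.55 within the numbers. Its call was lost without HCT-Oxa-c replicate 2 (edgeR adjusted p = 0.165), without HCT-FU-c replicate 2 (0.0926), with total counts as the scale (0.0706) and when HCT116 was left out of the model (0.0565). Total counts alone shifted the median of all tested miRNAs to -0.26 here and to 0.19 for HCT-FU-c against HCT116. miR-96-5p, with a log2 difference of 0.05 (SE 0.16), was at 0.17, -0.01 and 0.00 within the numbers, and miR-183-3p, with -0.15 (SE 0.29), was at 0.29, -0.38 and -0.43. Here 2 of 4 members stand beside 26.4% of all miRNAs, and with 4 members this does not separate the cluster from the rest.

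Ratios within a library do not depend on the scaling between libraries, and they show how the balance of the members shifted. For each 100 counts of miR-183-5p, miR-182-5p had 64.0, 95.4 and 109.6 counts in replicates 1, 2 and 3 of HCT116, 75.3, 89.6 and 119.1 in HCT-Oxa-c, and 90.9, 111.7 and 128.8 in HCT-FU-c. miR-96-5p had 6.83, 11.4 and 1.88 counts in HCT116, 7.14, 8.09 and 1.23 in HCT-Oxa-c, and 8.41, 19.7 and 1.95 in HCT-FU-c. The passenger arm miR-183-3p had 0.267, 0.761 and 0.216 counts for each 100 of its guide arm in HCT116, 0.411, 0.361 and 0.154 in HCT-Oxa-c, and 0.445, 1.13 and 0.327 in HCT-FU-c. The ratios of miR-96-5p and miR-183-3p were lowest in replicate 3 of each line, while that of miR-182-5p was highest there. The lines overlapped for all 3 ratios. Within each number, HCT-FU-c had the highest ratio of the 3 lines for each of these members, and the ratios share miR-183-5p as denominator, so this is 1 observation and not 3. The order rests on the matching by number. For miR-182-5p, the ratio of HCT-FU-c replicate 1 (90.9) was below that of HCT116 replicate 2 (95.4). The mean log2 ratio of miR-182-5p to miR-183-5p was 0.13 ± 0.25 in HCT-FU-c and -0.19 ± 0.40 in HCT116 (SD, n = 3 each), and for the 9 differences of this kind, 3 ratios in 3 comparisons, the two-sided exact permutation p was 0.40 to 0.80 (0.79 to 0.80 after Benjamini-Hochberg adjustment over the 9). With 3 libraries against 3 the smallest p possible is 0.10. With libraries paired by number the smallest possible exact sign-flip p is 0.25, and all 3 ratios reached it for HCT-FU-c against HCT116 and between the sublines. For HCT-Oxa-c against HCT116 this p was 0.50, 0.50 and 0.75.

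**Figure D3:**
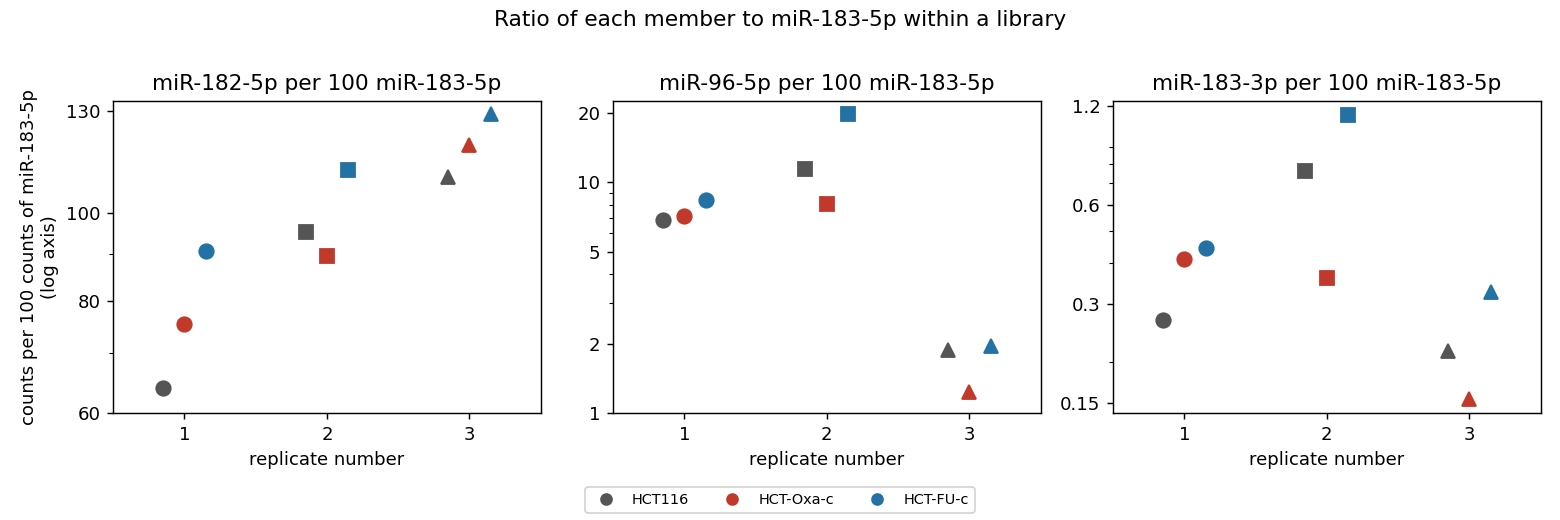
Counts of miR-182-5p, miR-96-5p and miR-183-3p for each 100 counts of miR-183-5p in the same library, on log axes, by replicate number and with colour for the line. The ratio of miR-96-5p is 6.83 to 19.7 in the libraries numbered 1 and 2 and 1.23 to 1.95 in those numbered 3, and HCT-FU-c lies highest within each number in every panel.

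Lists of other miRNAs give the scale of these differences. Of the epithelial miR-200 family (miR-200a-3p, miR-200b-3p, miR-200c-3p, miR-141-3p and miR-429), which keeps epithelial cells from a mesenchymal state, 0 of 5 were called by edgeR in any of the 3 comparisons of lines, with or without the block, and 2 differed among the replicate numbers, where 45.5% of all miRNAs did. With the block their median difference from HCT116 on the log2 scale was 0.03 for HCT-Oxa-c and 0.01 for HCT-FU-c, where the median of all tested miRNAs was -0.01 and 0.02. The members of the miR-183 cluster had medians of 0.24 and -0.04. Of 10 arms of miR-17-92, a polycistron known as a driver of growth in tumours, 0 were called without the block. With it 1 was lower in HCT-Oxa-c (miR-18a-5p, log2 fold change -0.68, edgeR adjusted p = 0.00686), where 14.7% of all miRNAs were called, and 1 was higher in HCT-FU-c (miR-20a-5p, 0.66, edgeR adjusted p = 0.0173), where 5.45% were. Between the sublines 1 was higher and 5 were lower in HCT-Oxa-c, where 26.4% of all miRNAs were called. Arms of miR-17-92 also went in both directions among the numbers, with 7 of 10 called beside 45.5% of all miRNAs, and replicate 3 was higher for miR-92a-1-5p (1.81, SE 0.27) and lower for miR-18a-3p (-1.70, SE 0.33). Replicate 3 was also higher for the 5p arms miR-17-5p (0.47), miR-18a-5p (1.12) and miR-20a-5p (0.55) and lower for miR-20a-3p (-1.34). The other arm called was miR-92a-3p (-0.10, SE 0.13), and the 3p arm miR-17-3p was at 0.69 without a call.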

How the data were processed

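The authors deposited raw read counts per mature miRNA, made per the labels from total RNA with the NEXTflex Small RNA-Seq v3 kit, and beside them a signal, which the authors made by dividing each count by 1 factor per library. The submitters' processing notes name CASAVA 1.8, Bowtie 1.1.2, DESeq2 and GRCh38.p7; the counting tool and its use of strand are not given in the sources used here. The test, run on counts only, was the quasi-likelihood F test of edgeR 4.0.16 in R 4.3.3 for TMM-normalized counts of all 9 libraries, after filterByExpr (minimum count 10, minimum total 15), with line as the factor and Benjamini-Hochberg adjustment over 367 miRNAs at 0.05. SE is the log2 fold change divided by the root of F. DESeq2 1.42.0 was an alternative, and the steps were tested on simulated counts. Replicates of 1 line differed by more than sampling noise, with chi-square per degree of freedom of 11.3 to 459.

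Numbers in the labels paired the libraries by the rule that every same-numbered pair correlates above 0.1 in deviations from line means (0.41 to 0.76), although numbers 1 and 2 were as alike (0.42 to 0.61), and the block is given where it changes a call. The biological coefficient of variation was 0.458 without and 0.174 with it. Correlations used log2 CPM with a prior count of 2. The named miRNAs are the members, the other arms of their hairpins, miRNAs with the same seed, the 3 most alike of other hairpins, the miR-200 family, 10 arms of miR-17-92 and the cell type markers. The members and lists were chosen with earlier results of these data known. The test over replicate numbers, the alternatives of the blocked model and the correlations in 6 libraries were added after seeing the data.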

Additional observations from a re-analysis of the deposited data

Results flagged for a closer look

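A test of the difference itself brought up miR-183-5p, whose effect relative to HCT116 differed between the sublines by a log2 difference of 0.79 in the edgeR model with the replicate block. The same test brought up miR-182-5p, with a difference of 0.55. Neither passed the threshold in the model without the block. With the block 97 of 367 miRNAs (26.4%) were called between the sublines, and the call of miR-182-5p was lost in 4 of 17 alternatives. miR-183-5p also lay above HCT116 within 3 of 3 replicate numbers in HCT-Oxa-c and below it within 3 of 3 in HCT-FU-c. For number 1 the log2 difference of HCT-Oxa-c from HCT116 was 0.03. These counts rest on the matching by number, and libraries numbered 1 and 2 were about as alike across numbers as within a number. No group had 4 or more libraries, so single libraries were not tested for standing apart.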

How the results depend on the processing

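Without the block, the count of members called was 0 for all 3 comparisons under the scalings, filters, DESeq2 and each library left out, and the block changed it to 1 for HCT-Oxa-c against HCT116 and 2 between the sublines. With the block the count for HCT-Oxa-c against HCT116 was 2 with only the 6 libraries compared (65 miRNAs called by edgeR), 0 with replicates 1 and 2 only (50 called), and 0 to 1 with 1 library left out (25 to 64 called). Between the sublines it was 1 with total counts only (103 called), 1 with only the 6 libraries compared (77 called), and 1 to 2 with 1 library left out (48 to 103 called). Signs reversed for values near 0 under other scalings, filters and tools, the block, or replicates 1 and 2 only, and also for larger values without the block when 1 library was left out. For miR-96-5p in HCT-FU-c the log2 fold change was -0.0219 with RLE size factors, -0.0219 with DESeq2 and -0.0076 with the block, and the blocked value was 0.16 with total counts, 0.0177 without a filter, 0.0201 with at least 10 counts in every library and 0.0776 with replicates 1 and 2. With total counts miR-182-5p in HCT-FU-c was at 0.0285 (0.0916 with the block), and miR-96-5p between the sublines at -0.16 (-0.13 with the block). miR-183-3p between the sublines was at 0.0282 with the block and replicates 1 and 2 only. With 1 library left out and no block, HCT-Oxa-c against HCT116 ranged from -0.20 to 0.93 for miR-183-5p, -0.13 to 0.20 for miR-183-3p, -0.12 to 0.50 for miR-96-5p and -0.40 to 1.38 for miR-182-5p. HCT-FU-c against HCT116 ranged from -1.07 to 0.25 for miR-183-5p, -0.24 to 0.31 for miR-96-5p and -1.01 to 0.88 for miR-182-5p, and the sublines from -0.29 to 0.0493 for miR-183-3p, -0.15 to 0.44 for miR-96-5p and -0.32 to 1.49 for miR-182-5p, while miR-183-5p between the sublines kept its sign, from 0.17 to 1.44. With the block the ranges were -0.16 to 0.26 for miR-183-3p and -0.0845 to 0.21 for miR-96-5p in HCT-Oxa-c, -0.25 to 0.15 for miR-96-5p and -0.24 to 0.0791 for miR-182-5p in HCT-FU-c, and -0.36 to 0.0454 for miR-183-3p between the sublines. The log2 ratios to miR-183-5p ranged, for HCT-Oxa-c against HCT116, from -0.14 to 0.25 for miR-182-5p, -1.09 to 0.53 for miR-96-5p and -0.67 to 0.24 for miR-183-3p, and for miR-96-5p from -0.38 to 1.29 in HCT-FU-c and -1.63 to 0.15 between the sublines. In replicates 1 and 2 only, r was -0.66 for miR-183-5p and miR-183-3p, -0.0921 for miR-183-5p and miR-96-5p, 0.89 for miR-183-5p and miR-182-5p, 0.31 for miR-183-3p and miR-96-5p, -0.41 for miR-183-3p and miR-182-5p and 0.10 for miR-96-5p and miR-182-5p. For deviations from line means it was -0.91 for miR-183-5p and miR-96-5p and -0.96 for miR-96-5p and miR-182-5p. Settings with fewer libraries hold less information, and for the others the cause was not tested. The block changed no other call of a member. Over all tested miRNAs DESeq2 called 23 for HCT-Oxa-c against HCT116, 4 for HCT-FU-c against HCT116 and 43 between the sublines. Without the block, edgeR called 4 to 12, 0 and 6 to 23 in these comparisons with 1 library left out, and 43, 13 and 67 with replicates 1 and 2 only. With the block, HCT-FU-c against HCT116 had 3 to 27 called with 1 library left out. Depth limits miR-183-3p most among the members, with 28 counts in its lowest library.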
